A study of Mus musculus with 2 samples.

Results

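The alpha-globin chaperone and the erythroid ubiquitin system were represented by 9 genes chosen by symbol: Ahsp, Ubb, Uba1, Ube2o, Ube2h, Ube2l6, Fbxo7, Trim10 and Trim58. Of these, 8 were matched by Ensembl identifier to the gene tables, out of 21461 nuclear protein-coding genes. Ahsp, the chaperone that binds free alpha-globin, matched no entry in the symbol tables used and was not analysed here. All 4 alpha- and beta-globin genes looked up beside it were detected. Their summed TPM (a gene's share of transcripts, corrected for length and scaled to a fixed total) was 1323 and 1330 in replicates 1 and 2. Most of that sum was on the beta-globin gene Hbb-bs (993.85 and 1008.4). The alpha-globin genes Hba-a1 and Hba-a2 had 115.63 and 126.28, and 162.42 and 156.57. The results below therefore describe the ubiquitin genes.

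Ubiquitin is a small protein that cells attach to other proteins, most often to send them to the proteasome. An activating enzyme (E1) charges ubiquitin, a conjugating enzyme (E2) carries it, and a ligase (E3) brings the loaded E2 to the target. Maturing red cells use this system to remove unpaired globin, ribosomes, motor proteins and other parts that the finished cell does not keep.

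The RNA came from G1E-ER4 cells, an immortalized mouse erythroid line that the labels give as strain C57BL/6J, male, postnatal, with Gata1 restored. The parent line lacks Gata1, and in G1E-ER4 the protein is supplied as a fusion that estradiol activates. Differentiation had been induced with 10 nM 17β-estradiol over 24 h. There was 1 group with 2 biological replicates of this 1 line and no untreated group, so the values are levels in induced cells, no contrast could be tested, and no p-value is given.

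Expected counts summed to 50277914 and 47478888, of which 14373925 and 13901316 lay on nuclear protein-coding genes. Those genes held only 22.7% and 22.9% of the TPM, and TPM rescaled over them alone would be 4.41 and 4.37 times higher. The erythroid label was checked against marker lists. All 10 erythroid markers reached 1 TPM in both libraries (lowest Slc4a1, 3.10 and 3.32), against 0 of 10 macrophage markers, whose summed TPM was 1.10 and 2.31 and 7 of which, Csf1r and C1qa among them, had no read. Of the megakaryocyte markers 4 of 7 were detected (summed TPM 33.3 and 24.9, Vwf at 0), and of the mast cell markers 2 of 6 (29.6 and 31.4, mostly Cpa3, with Mcpt4 at 0). The part of these cell programmes in the levels below was not tested.

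Ubb is a polyubiquitin gene: its messenger RNA codes for a head-to-tail chain of ubiquitin units that is cut into free ubiquitin. The coding sequence of Ubb-201 (GENCODE M21) has 915 bases with 4 units of 228 bases each. The first 60 bases of each unit are shown because this repetition bears on how reads can be counted. Capitals mark the positions at which the units differ from each other.
Ubb unit 1: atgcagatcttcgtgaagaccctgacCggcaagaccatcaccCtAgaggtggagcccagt
Ubb unit 2: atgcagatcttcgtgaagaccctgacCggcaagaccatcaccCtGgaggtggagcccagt
Ubb unit 3: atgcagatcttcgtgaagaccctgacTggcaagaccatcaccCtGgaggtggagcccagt
Ubb unit 4: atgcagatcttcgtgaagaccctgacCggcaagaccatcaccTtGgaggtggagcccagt
The units were 95.6% to 99.1% identical to each other. They differed at 11 positions in all, 10 of them at the third position of a codon, and all 4 encode the same 76 residues. The longest identical stretch between any pair of units ran over 183 bases.

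The levels of the 8 matched genes differed widely, by 90.7-fold among those detected. Ubb (ENSMUSG00000019505.7, mm10 chr11:62551171-62553213, plus strand) had the highest TPM and Trim58, an E3 ligase gene, had no read in either library. Of the 8, 7 were detected, that is, reached 1 TPM in both libraries. The same was true of 40.2% of all nuclear protein-coding genes. That share is the background for the counts of detected genes in every list. The median TPM of the detected 7 was 10.1, near the 9.76 of all detected genes. Both libraries gave the same order from Ubb through Uba1, Ube2l6, Fbxo7, Ube2h, Ube2o and Trim10 to Trim58. Only Ube2o and Trim10, neighbours in this order, had library values that overlapped. In bulk RNA, fewer cells that express a gene and less RNA per cell cannot be told apart.

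**Figure D1:**
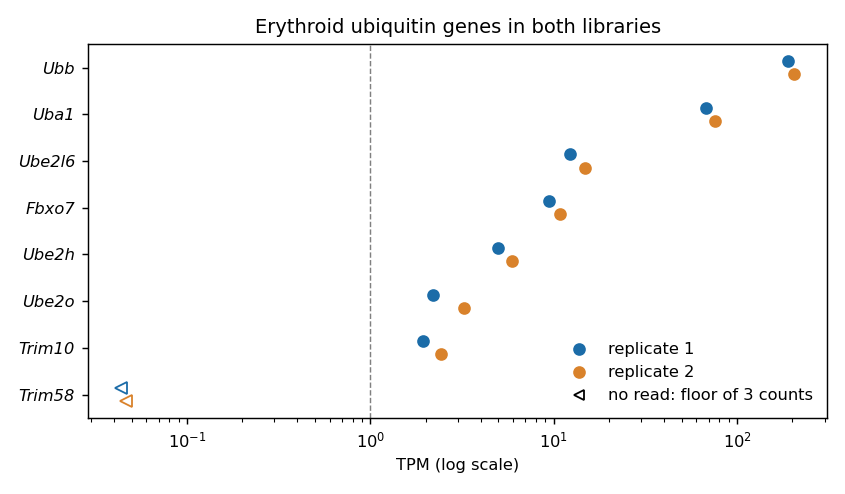
TPM of each matched gene (log scale), with replicate 1 in blue and replicate 2 in orange. The dashed line is the detection threshold of 1 TPM, and open triangles place Trim58, which had no read, at the level of 3 counts (0.0439 and 0.0463 TPM). Ubb lies 90.7-fold above Trim10, the lowest detected gene.

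Ubb had 8157.5 and 8256.8 expected counts in replicates 1 and 2, and a TPM of 190.7 and 203.91. Its mean TPM of 197 ± 9.34 (SD, n = 2) placed it at rank 144 of 21461 and above 98.3% of detected genes. It held 65.9% and 64.3% of the TPM summed over the matched genes. The other transcript with reads, Ubb-202, took 13.6% and 13.9% of the gene's TPM, and Ubb-201 took 86.4% and 86.2%.

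Rps27a, which codes for 1 ubiquitin fused to a ribosomal protein, gives a measure of scale. It had a TPM of 187 ± 10.2 (SD, n = 2), and its library values of 179.68 and 194.05 overlapped those of Ubb. Because a Ubb transcript carries several ubiquitin units, 4 in Ubb-201 and 3 in Ubb-202, the TPM of each transcript was also multiplied by the number of complete units it encodes. On that scale Ubb had 737 and 787, and Rps27a had 166 and 175. The gap follows from the unit numbers used as weights and from leaving out the Rps27a transcripts that code for no unit. It is not a separate result. Before weighting, the gene-level values overlapped. The coding transcripts of Rps27a alone, with 1 unit each, had 166 and 175, below the 190.7 and 203.91 of Ubb. The weighted values describe messenger RNA and not ubiquitin protein.

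The repeated sequence of Ubb is also present in other genes. Gm1821, a transcribed processed pseudogene, matched Ubb-201 at 98.5% over 685 bases and had 281 and 437 expected counts. Gm8797 matched at 98.2% over 384 bases and had 55.0 and 54.2. Together these copies held reads equal to 4.12% and 5.95% of the Ubb count. The deposited posterior SD of the Ubb count was 60.6 and 67.8, or 0.743% and 0.822% of it, and the SD between libraries was 4.73% of the mean TPM.

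Uba1 (ENSMUSG00000001924.11, chrX:20658326-20683179, plus strand) encodes the main E1 enzyme for ubiquitin. It had 5616 and 5659 expected counts and a TPM of 67.78 and 76.04 (mean 71.9 ± 5.84, SD, n = 2), at rank 512. Among 9 genes for E1 enzymes of ubiquitin and related modifiers, all were detected and Uba1 had the highest mean TPM. Uba2, part of the SUMO E1, was next at 67.25 and 75.80, so the libraries of this pair overlapped. The protein-coding transcripts of Uba1 alone had 38.13 and 39.51, below these gene-level values of Uba2, whose transcripts were not divided here. Uba6, the other E1 that charges ubiquitin, had a TPM of 9.96 and 10.18. Uba1 stood 7.14 ± 0.470 times above Uba6 in TPM, 4.45 times when only protein-coding transcripts were summed, and 3.75 times in expected counts.

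The transcripts of Uba1 were divided differently in the libraries. Uba1-201 and Uba1-202 share all 3174 coding bases and differ in their first exons, which start at chrX:20662898 and chrX:20658326. Uba1-201 had 26.0% and 36.1% of the gene's TPM, and Uba1-202 had 30.2% and 15.9%, so the leading coding transcript was not the same in both. The deposited credibility bounds did not overlap between libraries for either transcript. For Uba1-201 they were 13.15 to 21.02 and 22.89 to 33.44 TPM, and for Uba1-202 they were 16.13 to 24.09 and 4.67 to 15.13. The distinction rests on 228 bases of Uba1-201 and 201 bases of Uba1-202 that the other does not contain.

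Short processed transcripts that code for no protein, Uba1-205 and Uba1-204, had 30.0% and 31.3%, and 11.6% and 15.2%, of the gene's TPM. Coding transcripts held 54.1% ± 3.02 of the TPM but 88.2% and 86.2% of the expected counts, since TPM divides by length. Their TPM of 38.1 and 39.5 differed less between libraries than the gene's. Stretches of Uba1 matched 16 other genes, 11 of them with 10 or more counts, and the deposited posterior SD of the Uba1 count was 0 in both libraries.

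**Figure D2:**
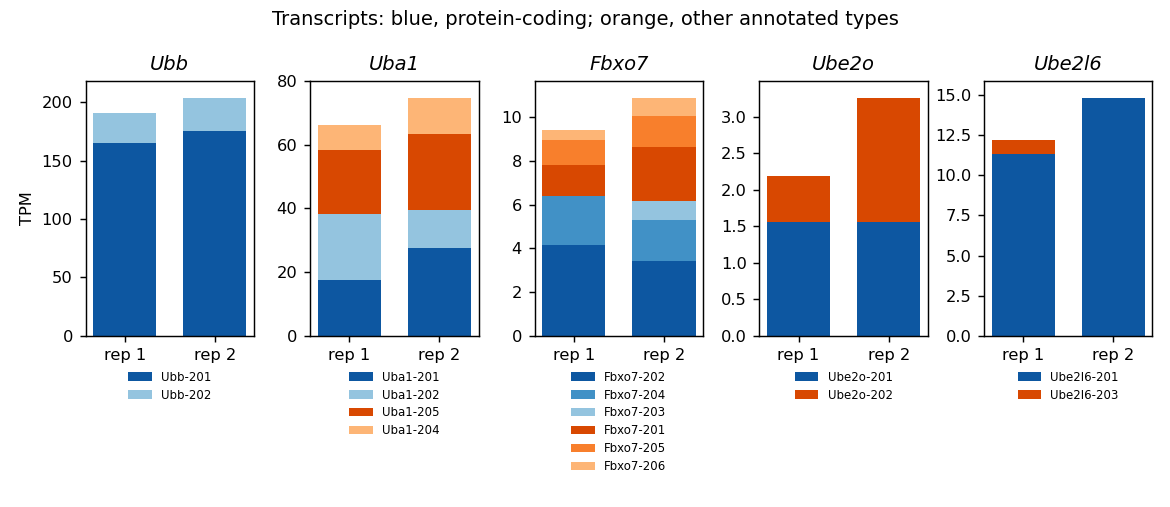
TPM of the transcripts with 5% or more of their gene's TPM in either library, stacked for each replicate, with protein-coding transcripts in blue and other annotated types in orange. The blue part of Ube2o is level between libraries (1.55 and 1.56) while the orange part is 0.64 in replicate 1 and 1.70 in replicate 2, and the 2 coding transcripts of Uba1 exchange their order.

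Among E2 genes, 30 of 35 were detected and 4 had no read. High levels were those of Ube2d3 (115.88 and 113.90 TPM), Ube2l3 (70.78 and 72.17), the mitotic Ube2c (75.31 and 62.85) and Ube2m, the NEDD8-conjugating enzyme (57.95 and 74.32). The 3 E2 genes of the erythroid set lay low in this family, at rank 21 for Ube2l6, 27 for Ube2h and 30 for Ube2o. The median of the detected E2 genes was 21.3 TPM, above all 3.

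Ube2l6 (ENSMUSG00000027078.10, chr2:84798828-84810335, plus strand) encodes the E2 that conjugates the ubiquitin-like protein ISG15 and can also carry ubiquitin. It had 569 and 669 expected counts and a TPM of 12.21 and 14.85 (mean 13.5 ± 1.87, SD, n = 2), at rank 3342. Its library values overlapped those of Ube2q2, Ube2t, Ube2b and Ube2w, its neighbours in the E2 family. Its close relative Ube2l3 was far higher: the ratio of Ube2l6 to Ube2l3 was 0.189 ± 0.0235, and 0.278 over protein-coding transcripts only. Ube2l6-201 held 93.0% and 100% of the TPM. A stretch of 260 bases matched Ift46 at 96.5% in the opposite orientation, with 270 and 318 counts on Ift46 and a deposited posterior SD of 0 for the Ube2l6 count.

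The genes of the ISG15 system were at mixed levels. Of 5, Ube2l6 included, 2 were detected, near the 40.2% of all nuclear protein-coding genes. Uba7, the E1 for ISG15, had a TPM of 16.80 and 23.24. Isg15 itself had no read in either library, so Ube2l6 was at least 92.0-fold higher per length than 3 counts per library of Isg15 would give. The ligase gene Herc6 had 0 and 0.01 TPM, and Usp18, which removes ISG15, had 0.90 and 1.69. The E1 and E2 of this system were thus measured where the modifier was not detectable at this depth.

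Ube2h (ENSMUSG00000039159.12, chr6:30211289-30304539, minus strand) encodes the E2 that works with the CTLH ligase, whose Maea subunit is known from erythroid cells. It had 743.12 and 838.59 expected counts and a TPM of 4.97 and 5.90 (mean 5.44 ± 0.658, SD, n = 2), at rank 6000. All of this TPM was on Ube2h-202, and the deposited posterior SD of its count was 1.25 and 2.98. All 11 CTLH genes were detected, led by Wdr26 (42.53 and 41.90), Mkln1 (22.58 and 28.92), Gid8 (19.47 and 19.22) and Rmnd5a (17.77 and 17.38). Maea had 11.35 and 12.09. Ube2h stood at 0.463 ± 0.0354 of Maea in TPM, though its counts were 1.05 times those of Maea. The lowest CTLH genes were Armc8 (6.79 and 7.20) and Ypel5 (5.28 and 5.18), and only Ypel5 had values within the range of Ube2h.

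Ube2o (ENSMUSG00000020802.8, chr11:116537740-116581447, minus strand) encodes a large enzyme that combines E2 and E3 functions and tags unpaired alpha-globin and ribosomal proteins in reticulocytes. It had 332 and 431 expected counts and a TPM of 2.19 and 3.26 (mean 2.73 ± 0.757, SD, n = 2), at rank 7595. It was the lowest of the detected E2 genes, and both of its library values lay below those of Ube2g2, the next above it (4.0 and 4.87), and of Ube2a (5.70 and 3.40). Ube2h was 2.04 ± 0.325 times higher than Ube2o in TPM and 3.49 times higher over protein-coding transcripts.

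The Ube2o difference between libraries lay in a transcript that is not annotated as coding. Ube2o-201, the coding transcript, had a TPM of 1.55 and 1.56. Ube2o-202, a processed transcript of 3550 bases and no exon sequence outside Ube2o-201, had 0.64 and 1.70, with deposited bounds of 0.359 to 0.913 and 1.34 to 2.01 that did not overlap. Its share of the gene's TPM was 29.2% in replicate 1 and 52.2% in replicate 2. Because the bases of Ube2o-202 all lie within Ube2o-201, the split depends on where along the gene reads fell, and read positions were not analysed here.

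**Figure D3:**
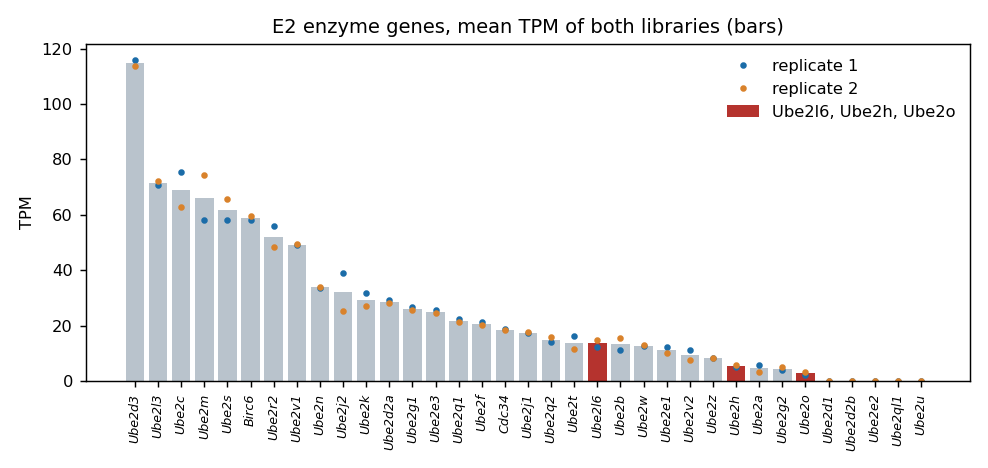
TPM of 35 E2 enzyme genes in order of their mean over 2 libraries (bars), with replicate 1 in blue and replicate 2 in orange. Ube2l6, Ube2h and Ube2o (red) stand at ranks 21, 27 and 30, far below Ube2d3 at the left.

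Fbxo7 (ENSMUSG00000001786.10, chr10:86021972-86051873, plus strand) encodes an F-box protein, the part of an SCF ubiquitin ligase that picks the target, and also binds the proteasome regulator PI31 and the kinase Cdk6. It had 775 and 784 expected counts and a TPM of 9.40 and 10.88 (mean 10.1 ± 1.05, SD, n = 2), at rank 4195. All 22 genes of the SCF core and F-box list were detected, led by Nedd8 (63.86 and 65.45), Cand1 (51.89 and 61.43), the adaptor Skp1a (60.07 and 52.25) and the scaffold Cul1 (52.33 and 56.02). Fbxo7 was 14th of them, below the list median of 11.7 TPM, and its values overlapped those of Fbxo33, Fbxo38 and Fbxw11. The lowest were Fbxw7 (3.18 and 2.96) and Fbxo21 (1.62 and 1.69).

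The ratio of Fbxo7 to Skp1a was 0.182 ± 0.0366 in TPM and 0.396 in counts. All 6 partners of Fbxo7 on the list were detected. Ccnd3, the cyclin D3 gene, had the highest TPM at 75.05 and 70.56, Cdk6 had 34.08 and 34.23, Psmf1, which encodes PI31, had 14.25 and 10.37, and the RING subunit gene Rbx1 had 7.5 and 7.75. At gene level Fbxo7 was above Rbx1 in both libraries, overlapped Psmf1, and was below the other partners. The protein-coding transcripts of Fbxo7 alone had 6.41 and 6.14, below the gene-level values of Rbx1 and Psmf1. The transcripts of these partners were not divided here.

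Fbxo7 was spread over 6 transcripts with reads. The coding transcripts Fbxo7-202 and Fbxo7-204 had 44.3% and 31.5%, and 23.8% and 17.0%, of the TPM. A transcript marked for nonsense-mediated decay, Fbxo7-201, had 15.2% and 23.1%, and the retained-intron transcript Fbxo7-205 had 12.1% and 12.8%. The processed transcript Fbxo7-206 had 4.62% and 7.70%, and the coding Fbxo7-203 had 0% and 7.95%. Coding transcripts together held 62.3% ± 8.35 of the TPM, and their level was 6.41 and 6.14. An antisense gene, A230060F14Rik, overlaps 314 exon bases of Fbxo7 and had 11 counts in each library, and whether counting used strand is not given in the sources used here.

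Trim10 and Trim58 are E3 ligases of the TRIM family with erythroid roles: Trim10 is needed for terminal maturation in cultured erythroid cells, and Trim58 targets the motor protein dynein late in maturation. Trim10 (ENSMUSG00000073400.6, chr17:36869574-36877833, plus strand) had 135 and 161 expected counts and a TPM of 1.93 and 2.42 (mean 2.18 ± 0.346, SD, n = 2), at rank 7941 and above 7.92% of detected genes. Trim58 (ENSMUSG00000037124.6, chr11:58640465-58652404, plus strand) had 0 counts in both libraries. The limit that 3 counts would set for Trim58 was 0.0439 and 0.0463 TPM, so Trim10 was at least 48.3-fold higher per length, with the floor taken per library. The deposited posterior mean TPM of Trim58 was 0.01 and 0.02, which is below that limit.

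Each of these genes has 1 annotated transcript, so no division among transcripts enters. Of 58 TRIM genes, 24 were detected and 23 had no read. The detected part is near the 40.2% of all nuclear protein-coding genes. The highest were Trim28, the corepressor also called KAP1 (85.85 and 98.19), Trim59 (30.69 and 27.78), Trim25 (22.84 and 20.99) and Trim44 (16.78 and 16.20). Trim10 was 21st, and its library values overlapped those of Trim3, Trim34a, Trim13 and Trim68. The lowest detected were Trim68 (1.38 and 2.42) and Trim21 (1.06 and 1.24). The median of the detected TRIM genes was 5.80 TPM.

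The sequences upstream of Trim10 and Trim58 are shown because Trim10 was detected and Trim58 had no read. Each window is the 250 bases before the RefSeq gene start (GRCm38.p6), at chr17:36869324-36869573 and chr11:58640215-58640464 on the plus strand. Capitals mark matches, on either strand, to AGATAA or TGATAA, sites of the GATA type, and to CCACCC, a site of the Klf1 type.
Trim10 upstream window: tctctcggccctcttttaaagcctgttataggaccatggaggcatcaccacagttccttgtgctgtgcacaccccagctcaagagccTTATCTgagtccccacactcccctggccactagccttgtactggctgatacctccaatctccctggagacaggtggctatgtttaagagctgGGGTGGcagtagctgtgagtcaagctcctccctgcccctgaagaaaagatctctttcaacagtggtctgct
Trim58 upstream window: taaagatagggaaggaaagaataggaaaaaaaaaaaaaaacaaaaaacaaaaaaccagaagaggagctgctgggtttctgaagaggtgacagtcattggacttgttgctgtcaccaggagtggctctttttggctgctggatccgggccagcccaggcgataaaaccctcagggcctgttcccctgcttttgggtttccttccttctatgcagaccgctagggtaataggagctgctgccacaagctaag
The Trim10 window held 1 match of each kind, both in reverse complement, and the Trim58 window held none of the letters searched. GATA-type sites that end in other letters were not searched. The Trim58 window has AGATAG near its start, which is left unmarked, so the windows do not separate these genes by GATA-type sites. Over the 12 RefSeq windows of 7 matched genes, 2 held AGATAA or TGATAA, 1 at Trim10 and 1 at an internal start of Ube2h, and the same letters were in 16.6% of 32851 windows of this length. CCACCC was in 6 of the 12 and in 28.1% of all windows. The matches describe letters in these windows only, and binding was not measured.

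None of the 7 detected genes differed 2-fold or more between libraries, on log2 of TPM plus 0.1, against 1.95% of 8808 genes whose mean TPM was at least 1. With so low a share over the 8808 genes, this count says little about the set. All 7 had the higher TPM in replicate 2, against 54.7% of those genes, a direction noticed after the values were seen. Their median log2 ratio of replicate 2 over replicate 1 was 0.24, and that of all 8808 genes was 0.03 with an SD of 0.37.

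The smallest log2 ratio was that of Ubb, at 0.10, followed by Uba1 at 0.17 and Fbxo7 at 0.21. Ube2h had 0.24, Ube2l6 0.28 and Trim10 0.31. The largest was that of Ube2o, at 0.55, which exceeded the ratio of 91.0% of the 8808 genes in size. Over the 6515 genes with a mean TPM of 1 to 20, where Ube2o lies, the SD was wider, at 0.42. On expected counts scaled by TMM, a normalization to a trimmed mean of gene ratios, Ube2o had 0.42 with a 95% counting interval of 0.21 to 0.63, and Ube2l6 had 0.28 with 0.12 to 0.44. For Ube2h the interval was 0.08 to 0.37. It lay just above 0 for Ubb (0.02 to 0.11) and Uba1 (0.004 to 0.11), the genes of the set with the most counts. It included 0 for Fbxo7 (-0.08 to 0.21) and Trim10 (-0.04 to 0.64). How often such an interval excludes 0 over all genes was not computed. These intervals cover counting error only.

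Over protein-coding transcripts alone, 6 of the 7 were higher in replicate 2 and Fbxo7 was lower, with a log2 ratio of -0.06. Ube2o then had 0.01 and Uba1 0.05, while Ube2l6 had 0.38. With 1 library per culture, a difference between cultures and a difference between library preparations cannot be told apart.

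**Figure D4:**
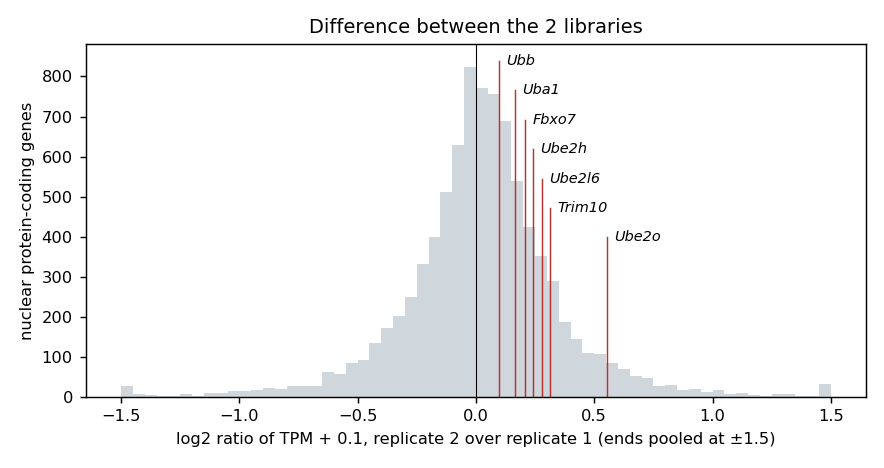
Number of nuclear protein-coding genes whose mean TPM was at least 1 (grey) by log2 ratio of TPM plus 0.1, replicate 2 over replicate 1, with values beyond 1.5 pooled at the ends. Red lines mark the 7 detected genes of the set, all to the right of 0, from Ubb at 0.10 to Ube2o at 0.55.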

How the data were processed

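Total RNA above a stated size range of 200 (no unit given) was sequenced in 2 biological replicates of 1 group. The labels give mm10 as the assembly, and the deposited documentation names GENCODE M4. The software that aligned and quantified the reads is not given in the sources used here. Expected counts, as deposited, are reads estimated for each gene or transcript and are not normalized. The TPM deposited by the authors are scaled per length and to a fixed total over all entries. FPKM deposited by the authors are per kilobase and by depth. Transcript shares are percent values of the gene's TPM deposited by the authors. Posterior SDs and credibility bounds are scores deposited by the authors beside posterior means, and the level of those bounds is not given in the sources used here.

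Of 69691 entries, 43346 are Ensembl genes, and 42462 were named from GENCODE M21 by identifier without version. The genes and lists were chosen with earlier results of these data known. The rule for named genes took the 9 genes, their transcripts with 5% or more of the gene's TPM, the genes of fixed pairs, up to 4 highest and 2 lowest detected genes of each list, and genes with a transcript at 95% identity over 100 bases or overlapping exons and 10 or more counts. Some list genes and 1 planned ratio are not reported here, and counts and ranks within lists leave those genes out. Others were named after their values were seen, such as neighbours in a family, and for Uba1 the matched genes are given as a number.

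Levels are the mean ± SD of 2 libraries. A pseudocount of 0.1 entered the log2 ratios, so differences of low genes are understated. Counts were scaled with edgeR 4.0.16 (TMM) and DESeq2 1.42.0 in R 4.3.3, used for scaling only, on expected counts rounded to whole numbers, after a test on simulated data. Sequences were compared with BLAST 2.17.0. Tables and figures used Python 3.11.15, scipy 1.17.1, numpy 2.4.6, matplotlib 3.10.9 and pandas 2.3.3. Floors of 3 counts and 95% intervals (exact binomial, on a gene's counts in both libraries) cover counting error only, since no molecular identifiers are stated for the reads. Alternatives changed the TPM threshold, pseudocount, unit, scaling and transcripts summed, and left out each replicate.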

Additional observations from a re-analysis of the deposited data

How the results depend on the processing

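The number of detected genes was 7 at a TPM threshold of 0.5, on FPKM, on posterior mean TPM, after rescaling and in each library alone (7 to 7), and 4 at a threshold of 5 TPM. The ratio of Trim58 to Trim10 was 0 in TPM and 0.00685 on posterior mean TPM, where Trim58 is still below the limit of 3 counts. None of the detected genes was 2-fold apart under any scaling or pseudocount tried. The count of genes higher in replicate 2, and its alternatives, were chosen after seeing the data: it was 7 under TMM, DESeq2 size factors, rescaling and posterior means, and 6 over protein-coding transcripts. Among single genes, pairs and transcript shares, 29 alternative values moved by less than the SD between replicates and 22 by more. The 22 include the rescaled TPM of every detected gene, where the change of unit alone moves the value. They also include the posterior mean TPM of Trim58, whose SD in TPM was 0. Leaving out 1 of 2 replicates is not counted there, since it always moves a mean by less than that SD. The ratio of Ahsp to alpha-globin was not run. No paired analysis was possible because there is 1 group. At 135 to 431 counts, Trim10 and Ube2o limit what differences between libraries can be read.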

Other observations

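Deubiquitinases are enzymes that remove ubiquitin. Of 19 listed deubiquitinase genes, 18 reached 1 TPM in both libraries, against 40.2% of all nuclear protein-coding genes. The median over the list was 14.4 TPM. The list was chosen with earlier results of these data known and does not stand for the whole class. The highest were Usp14, which acts at the proteasome (53.72 and 49.50 TPM), Usp9x (48.45 and 53.50), Usp7 (50.36 and 51.21) and Usp1, which acts in DNA repair (55.25 and 45.64). Zranb1 (4.74 and 4.97) and Cyld (4.29 and 4.10) were the lowest detected, and Uchl1 had no read. The summed TPM of the list was 418 and 419.

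Of 17 interferon-stimulated genes, 3 were detected and 5 had no read, against a detected share of 40.2% of all nuclear protein-coding genes. The detected genes were Irf9 (6.90 and 6.09 TPM), Stat2 (3.21 and 3.91) and Tap1 (1.76 and 1.30). The effector genes Ifit1 (0.02 and 0) and Rsad2 (0.02 and 0.01) were near 0. Others had reads without reaching 1 TPM in both libraries: Usp18 (0.90 and 1.69), Bst2 (0.71 and 1.19), Irf7 (0.68 and 0.67) and Ifit2 (0.45 and 0.24). Ube2l6, at 12.21 and 14.85 TPM, lay above Irf9, Stat2 and Tap1 in both libraries.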
